A study of Mus musculus with 6 samples.

Results

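The collagen genes described here are the 44 genes, of 55487 in the deposited table, whose symbol reads Col, a number, the letter a and a number, as in *Col1a1*. The rule used the symbol and no measured value. RNA-seq was performed on dental epithelium of the mandibular first molar (M1) of mice at postnatal day 2.5 (PN2.5), in 3 control and 3 cKO libraries. Control mice were Wnt10aflox/flox, and cKO mice were K14-Cre;Wnt10aflox/flox, so that both groups carried the floxed alleles of *Wnt10a*, a gene for a secreted Wnt ligand, and the cKO also carried Cre recombinase. Each library was a pool of molars, 4 by the series' own design text and another number by the methods of the study. The keratin 14 promoter drives Cre in epithelial cells, so cells of other types that came along with the dissected epithelium are not a target of the deletion. The study asked how epithelial *Wnt10a* acts on the forming root furcation, and the comparison here is cKO against control for each collagen gene.

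Collagens are the structural proteins of the extracellular matrix. Their chains wind around each other into a triple helix, which requires a glycine at the start of each Gly-X-Y repeat, and some collagens join different chains, each with its own gene. Fibrillar collagens form the fibres of bone, dentin and connective tissue. Basement membrane collagens form the sheet on which epithelium and endothelium rest, or anchor it. Transmembrane collagens span the membrane of the cell that makes them. In the tooth germ, the enamel organ epithelium is separated by a basement membrane from the dental mesenchyme, whose odontoblasts secrete collagen I as the matrix of dentin.

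The fibrillar class stands apart from the other classes in its coding sequences by the length of the unbroken repeats. Stretches from single exons of 3 chains that recur below are shown, each from the GENCODE M21 transcript on GRCm38. They read 5′ to 3′ on the coding strand, with the glycine codon that opens each repeat in capitals. The *Col1a1* stretch is a whole exon. Those of *Col4a1* and *Col17a1* are windows placed on the repeats and need not span their exons. They were chosen to set an unbroken fibrillar helix beside an interrupted basement membrane helix and the epithelial transmembrane chain.
*Col1a1* exon 8, chr11:94939904-94939957 (+): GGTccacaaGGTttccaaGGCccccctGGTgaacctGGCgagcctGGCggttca
*Col4a1* exon 21, chr8:11235141-11235200 (-): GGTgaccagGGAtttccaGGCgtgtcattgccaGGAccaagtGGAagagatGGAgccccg
*Col17a1* exon 24, chr19:47664964-47665017 (-): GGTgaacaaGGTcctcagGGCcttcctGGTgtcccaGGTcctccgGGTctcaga

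The *Col1a1* exon and the *Col17a1* stretch are 54 bases each and hold 6 repeats without a break. In the *Col4a1* stretch, of 60 bases, the spacing of the glycines shifts once, where one run of repeats ends and the next begins. Over the whole coding sequence, the longest unbroken run was 338 repeats in *Col1a1* and 40 in *Col4a1*, which has 18 separate runs of at least 10 repeats. In *Col17a1* it was 56 repeats. The 11 fibrillar genes had longest runs of 216 to 344 repeats, against 30 to 75 in the 9 basement membrane genes and 40 to 56 in the 4 transmembrane genes. Exons of exactly 54 bases numbered 21 to 33 in each fibrillar gene and 1 to 6 in each basement membrane gene, while the 3 short-chain network genes had 0. The 9 genes of the FACIT class, described below, had 4 to 28, which overlaps the fibrillar range.

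**Figure D1:**
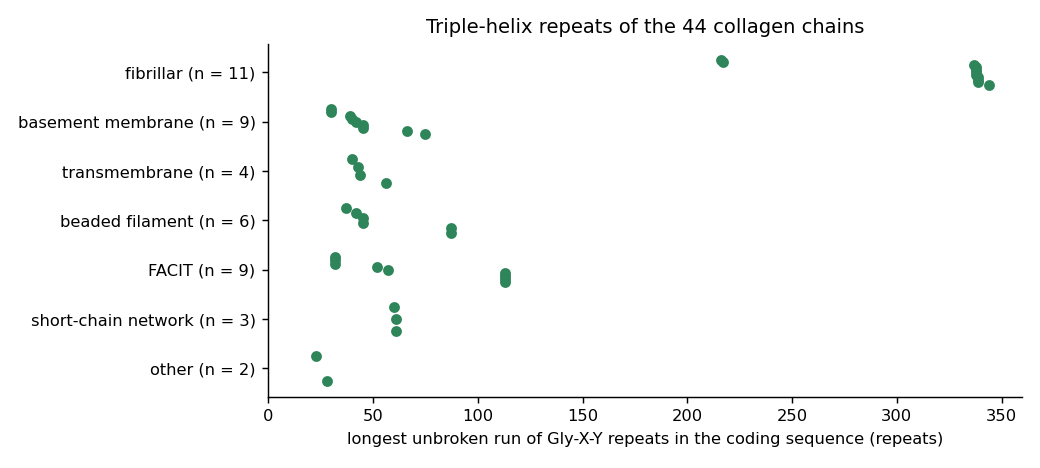
Longest unbroken run of Gly-X-Y repeats (horizontal axis, repeats) in the coding sequence of each of the 44 collagen genes, 1 point per gene, by class. The fibrillar genes lie at 216 repeats and above, and every gene of the other classes lies at 113 or below.

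Before the collagens, the deleted gene was examined. *Wnt10a* had 56.0, 51.2 and 57.9 TPM in control against 22.7, 21.8 and 32.2 TPM in cKO, here and throughout in the order of replicates 1, 2 and 3. TPM is a level of transcripts scaled for their length and for the total of the library. The groups did not overlap, and the mean in cKO stood at 46.5% of that in control. The epithelial keratins *Krt14* and *Krt5* had 2190 to 2773 TPM and 1945 to 3713 TPM over the 6 libraries, and *Amelx*, which encodes the enamel matrix protein amelogenin, had 85454 to 203538 TPM. Genes of other cell types were present too. *Dspp* and *Dmp1* of odontoblasts had 352 to 1302 TPM and 62.2 to 126 TPM, *Pdgfra* and *Pdgfrb* of mesenchyme 16.6 to 34.7 TPM and 2.79 to 7.63 TPM, and *Pecam1* and *Cdh5* of endothelium 12.95 to 27.1 TPM and 10.3 to 29.8 TPM. *Rgs5* and *Cspg4* of pericytes had 21.7 to 58.2 TPM and 5.17 to 8.14 TPM, and the near-identical *Hba-a1* and *Hba-a2* of erythroid cells, between which reads may be split, 197 to 307 TPM and 409 to 814 TPM. *Cd68* of macrophages had 3.09 to 7.64 TPM. *Sox10* of glia, *Ptprc* of leukocytes, *Acan* of cartilage and *Acta1* and *Myh3* of skeletal muscle stayed below 1 TPM in each library, and the cartilage genes *Matn1* and *Snorc* were listed at 0. Defining genes of odontoblasts, mesenchyme and vessels were thus measured beside those of the epithelium that the labels name. None of the 3 glial and 5 macrophage and leukocyte markers tested met the criteria given below. In such bulk samples, fewer cells of a type and less RNA per cell cannot be told apart. TPM keep no record of sequencing depth, which is therefore unknown here.

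Of the 44 collagen genes, 32 averaged 1 TPM or more across the 6 libraries and were tested, and 12 were not. Collagen I dominated. *Col1a1* and *Col1a2*, the chains of collagen I, made up 70.0% to 76.6% of all collagen TPM in each library, and the 44 genes together made up 0.410% to 0.686% of the TPM of a library. By class, fibrillar collagens held 77.7% to 86.2% of the collagen TPM, basement membrane collagens 4.93% to 11.6%, and FACIT collagens, which bind to the surface of fibrils or link them to other matrix, 4.68% to 7.05%. Transmembrane collagens held 2.23% to 3.57%, and the beaded filament, short-chain network and other classes held at most 1.11% each. Levels of the tested genes ran over more than 3 orders of magnitude, from *Col1a1* at a control mean of 2251 TPM, rank 52 of all genes tested, to *Col8a2* at 1.27 TPM, rank 13136.

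**Figure D2:**
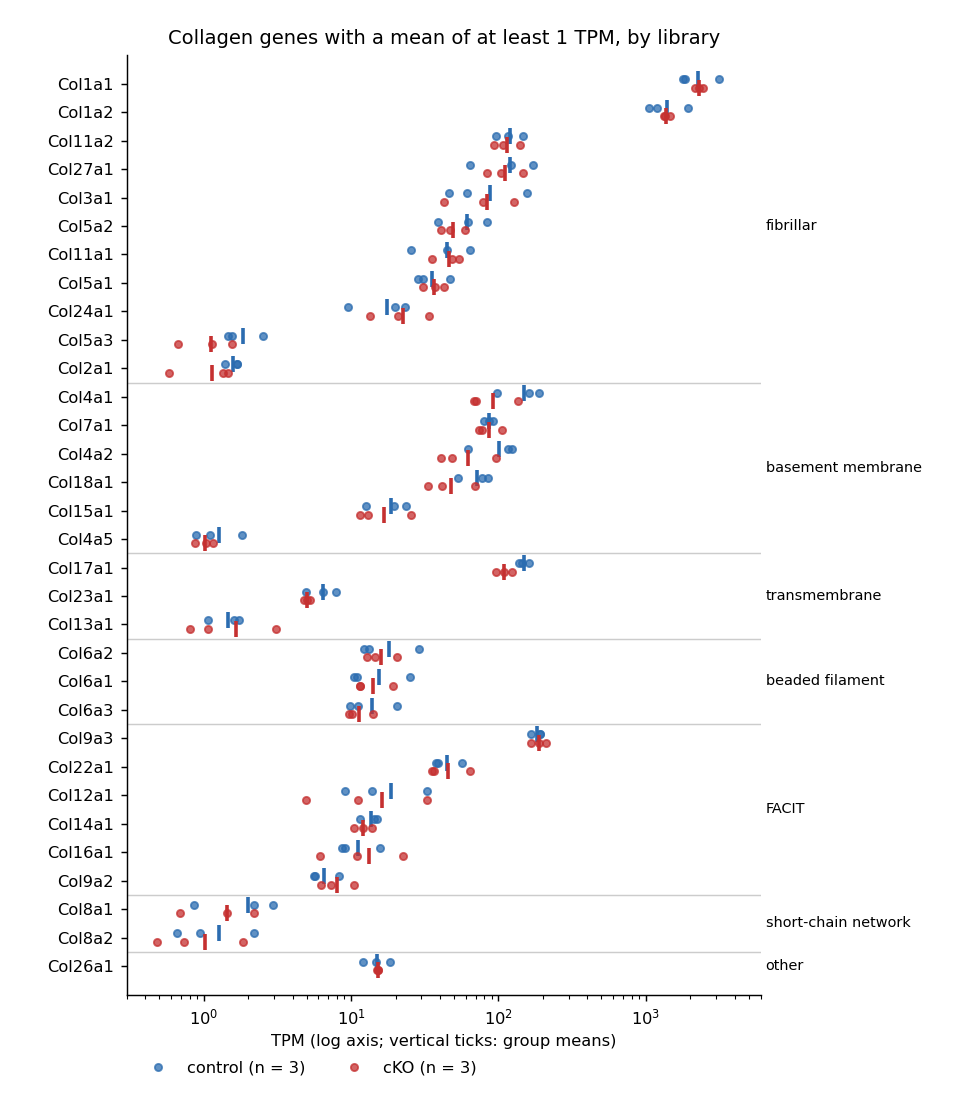
Level of each of the 32 tested collagen genes in TPM (horizontal log axis), 1 point per library, blue for the 3 control and red for the 3 cKO libraries, with a vertical tick at each group mean. The points of the groups overlap for every gene except *Col17a1*, whose 3 cKO libraries (95.7 to 123 TPM) lie below the 3 control libraries (138 to 162 TPM).

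Genes were called by the criteria of the study, an unadjusted p below 0.05 with a difference of more than 20% from the control mean. Of the 32 collagen genes tested, 1 met them, *Col17a1*, which was lower in cKO. Over all 13719 genes tested, 552 met them, or 4.02%, of which 339 were lower (2.47%) and 213 higher (1.55%) in cKO. With rescaling within protein-coding genes, leaving out *Amelx* and *Ambn*, these counts were 633 lower and 102 higher, with quantile normalization 325 and 324, with median-ratio scaling 333 and 317, and with a correction of each library for GC content and transcript length 285 and 334. The collagen share, 1 of 32, was 3.125%, near the background. The groups did not overlap for the same single collagen gene, against 9.64% of all genes tested in either direction and 6.13% lower in cKO. No collagen gene had an adjusted p below 0.05 (limma, Benjamini-Hochberg over all genes tested, lowest 0.9999), 1 had an unadjusted p below 0.05, and 2 genes of all tested (0.0146%) had an adjusted p below 0.05. These p-values measure the spread between the libraries, each of which was a pool.

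The fold changes of the collagens were small and of both signs. On the log2(TPM + 1) scale, 22 of the 32 were below 0, which is 68.8% against 60.3% of all genes tested, and the median log2 fold change was -0.08 against -0.07 for all genes. After the length and GC correction the median was 0.13 against 0.002 for all genes, with 10 collagens below and 22 above 0, so the direction of the median depended on this step. Over all genes with the correction, 6793 were below and 6914 above 0. Collagen transcripts are long, with a median of 5794 bases against 3161 over the genes tested. Across 12188 protein-coding genes, longer transcripts had lower fold changes in cKO (Spearman correlation -0.48, a description across genes, which share the same 6 libraries and are not independent). The corrected value is given beside the uncorrected one where a call of the uncorrected fit or a printed fold change turns on it. The plot of fold changes shows it for each collagen. Marker and processing genes that passed only after the correction are not all named.

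**Figure D3:**
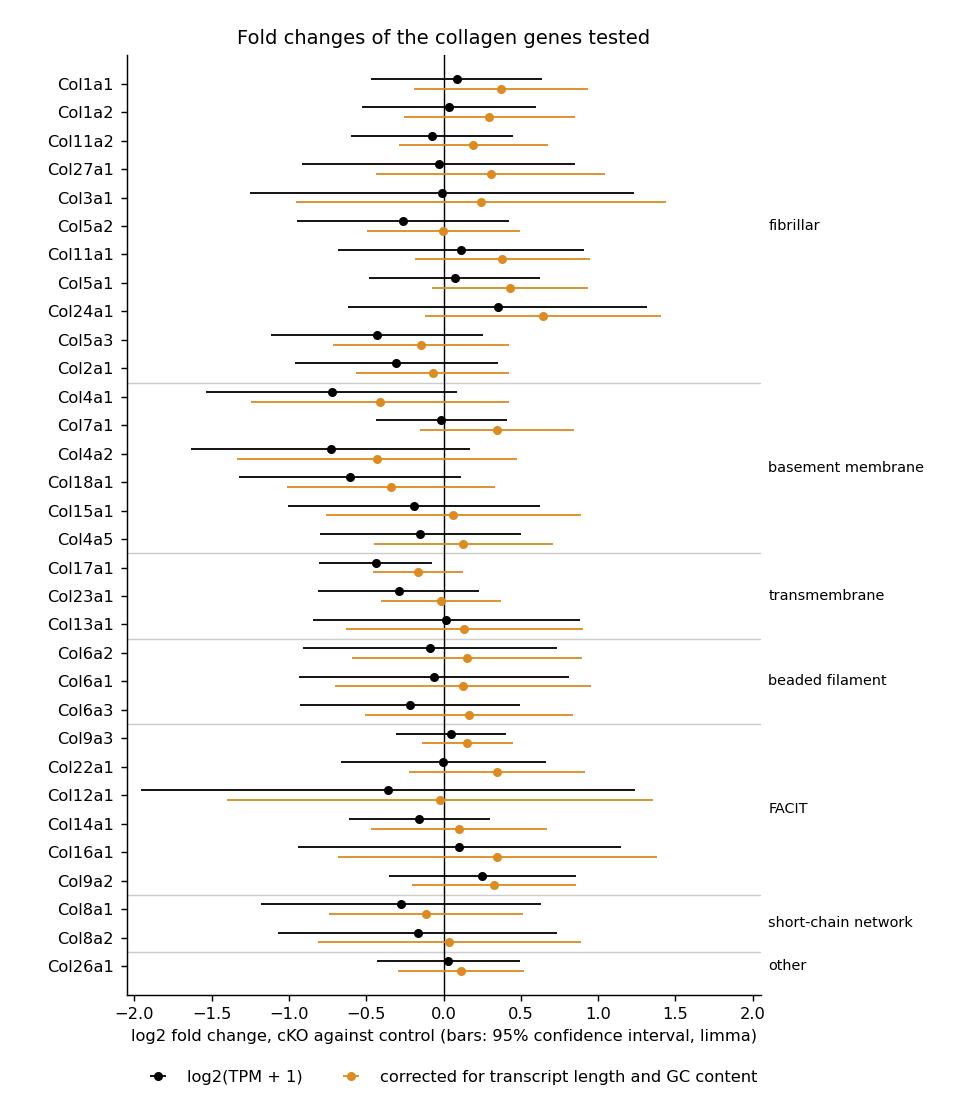
Log2 fold change of cKO against control (horizontal axis) for the 32 tested collagen genes by class, with 95% confidence intervals from limma, in black on log2(TPM + 1) and in orange after the length and GC correction. The black interval of *Col17a1* lies below 0 (-0.81 to -0.07) while its orange interval reaches from -0.45 to 0.13, and the intervals of the other 31 genes include 0 on both scales.

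*Col17a1*, a transmembrane collagen of the hemidesmosome that holds basal epithelial cells to the basement membrane, was the collagen that met the criteria. The gene lies on chr19:47646344-47692094 of GRCm38, on the minus strand, and its transcript of 5588 bases has 54 exons. It had 162, 145 and 138 TPM in control against 95.7, 109 and 123 TPM in cKO. Each cKO library was below each control library. The means were 148 ± 12.3 TPM in control and 109 ± 13.7 TPM in cKO (SD, n = 3 each), so the cKO stood at 73.8% of control. The log2 fold change was -0.44 (SE 0.16, 95% interval -0.81 to -0.07, limma p = 0.0249, adjusted p = 0.9999), and the exact two-sided permutation test gave p = 0.1, the smallest that 3 against 3 libraries allow. After the length and GC correction it was -0.16 (95% interval -0.45 to 0.13), which no longer met the criteria. Leaving out control replicate 1, cKO replicate 1 or cKO replicate 2 also ended the call, at log2 fold changes of -0.38, -0.35 and -0.44 and limma p of 0.0870, 0.0667 and 0.0506, as did median-ratio scaling, at -0.37 and 0.0913.

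Epithelial genes were set beside *Col17a1*. Relative to *Krt14*, *Col17a1* stood at 0.0643, 0.0663 and 0.0497 in control and 0.0431, 0.0471 and 0.0448 in cKO, again without overlap. Relative to *Cdh1*, which encodes E-cadherin, the values were 0.777, 1.01 and 0.896 in control and 0.830, 0.691 and 0.723 in cKO, and the groups overlapped. Of 10 enamel organ epithelium markers, 9 had a log2 fold change below 0, against 60.3% of all genes tested, and 0 met the criteria. Their summed level was 204920 to 246077 TPM in control and 101061 to 214835 TPM in cKO. The part of these shifts in the lower *Col17a1* was not tested.

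The other transmembrane collagens were low. *Col23a1* had 7.94, 6.44 and 4.95 TPM in control against 4.75, 5.26 and 5 TPM in cKO, with a log2 fold change of -0.29 (95% interval -0.81 to 0.23, limma p = 0.229, exact permutation p = 0.3) that was -0.018 after the correction. Its groups overlapped because control replicate 3 lay just below cKO replicates 2 and 3. *Col13a1* ranged from 0.80 to 3.08 TPM, both ends in cKO, and *Col25a1*, precursor of a component of amyloid plaques, from 0.29 to 0.87 TPM, too low to be tested. The summed level of the class did not overlap between groups, at 144 to 172 TPM in control and 102 to 130 TPM in cKO, of which *Col17a1* was the largest component in each library.

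Among collagens averaging over 10 TPM, the basement membrane class held the largest fold changes in size before the correction, while after it the fibrillar *Col24a1* had the largest. None of the 6 basement membrane genes tested met the criteria. *Col4a1* and *Col4a2* encode the chains that together form the collagen IV network found in nearly all basement membranes. *Col4a1* had 190, 97.9 and 160 TPM in control against 67.9, 70.1 and 137 TPM in cKO. *Col4a2* had 123, 62.5 and 116 TPM in control against 40.6, 48.5 and 96.3 TPM in cKO. In both genes cKO replicates 1 and 2 were the lowest libraries, while cKO replicate 3 was above control replicate 2, so the groups overlapped.

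The cKO mean of *Col4a1* was 61.4% of control (149 ± 46.9 against 91.6 ± 39.1 TPM, SD, n = 3 each), with a log2 fold change of -0.72 (SE 0.35, 95% interval -1.54 to 0.09, limma p = 0.0735, exact permutation p = 0.2). That of *Col4a2* was 61.6% of control, with a log2 fold change of -0.73 (SE 0.38, 95% interval -1.63 to 0.17, limma p = 0.0966, exact permutation p = 0.2). After the length and GC correction the values were -0.41 for *Col4a1* (95% interval -1.24 to 0.42) and -0.43 for *Col4a2* (95% interval -1.34 to 0.47). Either chain reached an unadjusted p below 0.05 when control replicate 2 or cKO replicate 3 was left out. The log2 fold change was then -0.998 and -1.05 for *Col4a1*, and -1.04 and -1.10 for *Col4a2*.

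*Col4a1* and *Col4a2* lie head to head on chromosome 8. The first is transcribed from the minus strand (chr8:11198423-11312826) and the second from the plus strand (chr8:11312805-11449287), and their first exons share 22 bases, chr8:11312805-11312826. Since the strand of the libraries is not given in the sources used here, reads within those 22 bases could not be assigned to one of them. The ratio of *Col4a1* to *Col4a2* ranged from 1.38 to 1.67 over the 6 libraries, a 1.21-fold spread, although each gene alone varied 2.79-fold and 3.02-fold. In the 250 bases before the RefSeq start (GRCm38.p6), the motif CCAAT was found on either strand for both genes and GGGCGG for *Col4a2*. These motifs were also found in 33.8% and 32.7% of all 32851 windows, and in 13 and 22 of the 38 windows of the 35 collagen genes that had one. The motif TATAAA was in 12.4% of all windows and in 5 of the 38, among them that of *Col17a1*. A match is a description of letters, and no binding was measured.

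*Col18a1*, the collagen of vascular and epithelial basement membranes from which endostatin is cut, followed a like order of libraries. It had 84.4, 52.7 and 77.3 TPM in control against 33.1, 41.4 and 69.2 TPM in cKO. The log2 fold change was -0.61 (95% interval -1.33 to 0.11, limma p = 0.0858, exact permutation p = 0.2) and -0.34 after the correction. *Col15a1*, its close relative, had 19.5, 12.7 and 23.5 TPM in control against 12.99, 11.4 and 25.6 TPM in cKO, with its highest value in cKO replicate 3. *Col7a1*, whose product forms the anchoring fibrils below epithelial basement membranes, differed less. Its level was 86.4, 80.1 and 91.1 TPM in control against 77.4, 74.2 and 106 TPM in cKO, with a log2 fold change of -0.01 (95% interval -0.44 to 0.41, limma p = 0.936, exact permutation p = 1) that turned to 0.35 after the correction (95% interval -0.15 to 0.84) and to 0.05 with median-ratio scaling. The remaining collagen IV chains were near the limit of what was measured. *Col4a5* had 0.87 to 1.83 TPM, and *Col4a3*, *Col4a4* and *Col4a6* stayed between 0.01 and 0.55 TPM and were not tested.

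Endothelial markers were set beside the collagen IV chains. All 8 endothelial markers had a log2 fold change below 0 on the log2(TPM + 1) scale (median -0.33, and -0.28 after the correction), of which 2 met the criteria, *Cdh5* (29.8, 16.3 and 25.4 TPM in control against 10.3, 12.8 and 17.3 TPM in cKO) and *Tek*. After the correction neither met them, at -0.61 for *Cdh5* (95% interval -1.26 to 0.04) and -0.40 for *Tek* (95% interval -0.83 to 0.03). *Cdh5* and *Tek* each had an adjusted p of 0.9999 (limma). Of all genes tested, 60.3% had a log2 fold change below 0, with a median of -0.07, and 2.47% met the criteria as lower. The summed level of the 8 endothelial markers was 169, 133 and 166 TPM in control against 113, 123 and 135 TPM in cKO. It was lowest in control replicate 2 among controls and highest in cKO replicate 3 among cKO libraries, as for *Col4a1*, *Col4a2* and *Col18a1*. *Col7a1*, *Col15a1* and the FACIT gene *Col14a1* also had this order. Single markers did not all share this order, which *Egfl7*, *Emcn* and *Tek* did not have. The keratin *Krt5*, with 3063, 2161 and 3713 TPM in control against 1945, 2111 and 3224 TPM in cKO, was also lowest among controls in replicate 2 and highest among cKO libraries in replicate 3. The ratio of *Col4a1* to the endothelial sum was 1.12, 0.736 and 0.965 in control and 0.603, 0.573 and 1.01 in cKO, and the groups overlapped. Of the 6 mural markers tested, *Notch3* met the criteria as lower, and 4 had a log2 fold change below 0 and 2 above it. *Rgs5* was at -0.56 (95% interval -1.31 to 0.19), and at -0.50 after the correction (95% interval -0.94 to -0.07). The summed erythroid markers did not overlap between groups (1328 to 1979 TPM in control, 1161 to 1284 TPM in cKO). The part of vascular cells in the basement membrane values was not tested.

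**Figure D4:**
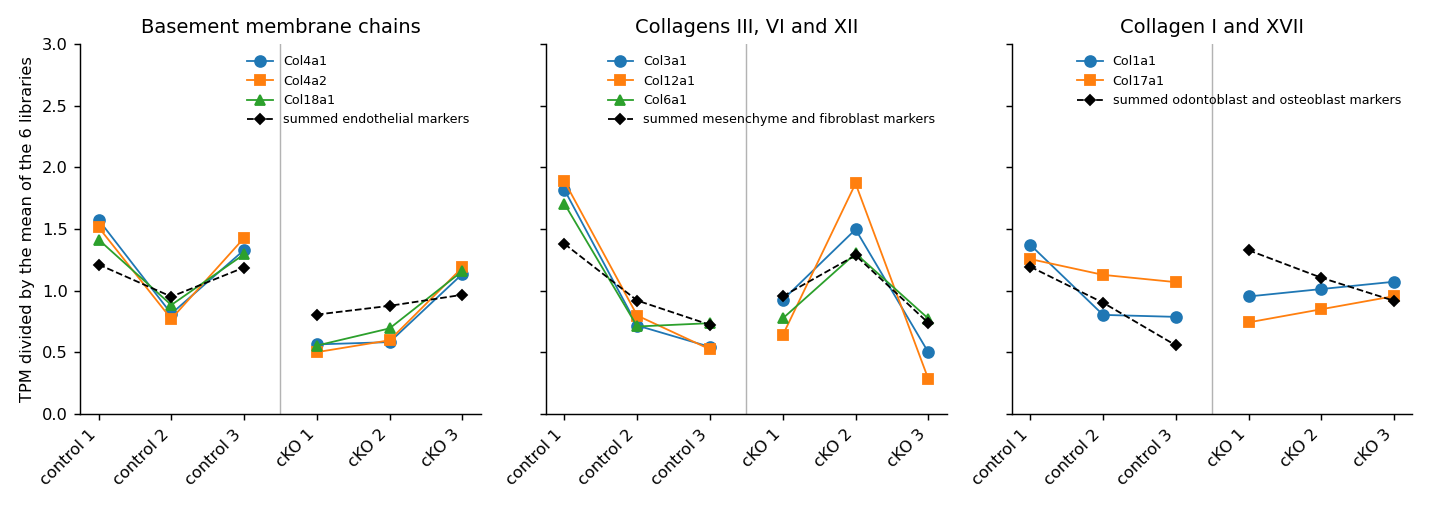
TPM divided by the mean of the 6 libraries (vertical axis) for collagen genes in colour and for the summed markers of a cell type in black dashes, in each library, with lines that only guide the eye within a group. *Col4a1*, *Col4a2* and *Col18a1* rise and fall together and have their lowest values in cKO replicates 1 and 2, *Col3a1*, *Col12a1* and *Col6a1* peak in control replicate 1 and cKO replicate 2, and *Col17a1* lies lower in the cKO libraries.

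No difference in collagen I was detected between the groups. *Col1a1* had 3127, 1831 and 1795 TPM in control against 2172, 2309 and 2444 TPM in cKO. *Col1a2* had 1947, 1200 and 1045 TPM in control against 1326, 1354 and 1458 TPM in cKO. For both chains the cKO libraries lay close together, inside the range of the controls, whose replicate 1 stood far above the other two. The log2 fold change was 0.08 for *Col1a1* (SE 0.24, 95% interval -0.47 to 0.64, limma p = 0.729, exact permutation p = 1) and 0.03 for *Col1a2* (SE 0.24, 95% interval -0.53 to 0.60, limma p = 0.893, exact permutation p = 1). Its sign was not stable. With quantile normalization the values were -0.12 for *Col1a1* and -0.17 for *Col1a2*, and after the length and GC correction 0.37 and 0.29. *Col1a1* over *Col1a2* was 1.53 to 1.72 in all 6 libraries, a 1.13-fold spread, the smallest among the chain ratios computed.

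**Figure D5:**
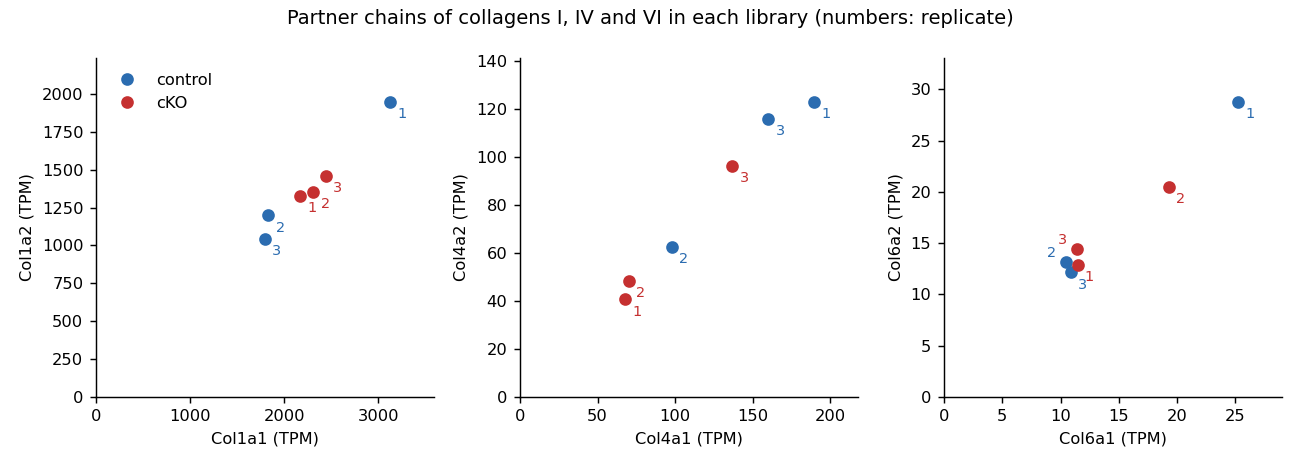
Level of partner chains of collagens I, IV and VI in TPM, 1 point per library with its replicate number, blue for control and red for cKO. In each panel the points lie near a line through the origin, with ratios of 1.53 to 1.72 (*Col1a1* over *Col1a2*), 1.38 to 1.67 (*Col4a1* over *Col4a2*) and 0.794 to 0.942 (*Col6a1* over *Col6a2*).

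Collagen I is the product of odontoblasts and osteoblasts as well as of fibroblasts. The 10 odontoblast and osteoblast markers summed to 3378, 2552 and 1574 TPM in control against 3756, 3125 and 2595 TPM in cKO, and the groups overlapped. *Bglap* and *Bglap2*, which encode osteocalcin and are near-identical neighbours between which reads may be split, met the criteria as higher in cKO. *Bglap* had 618, 409 and 392 TPM in control against 1089, 686 and 738 TPM in cKO, and *Bglap2* had 1182, 858 and 694 TPM in control against 1818, 1245 and 1219 TPM in cKO. After the correction the log2 fold change was 0.70 for *Bglap* (95% interval 0.05 to 1.34) and 0.54 for *Bglap2* (95% interval -0.12 to 1.19), so that *Bglap2* no longer met the criteria. The dentin gene *Dspp* did not meet the criteria, at 1302, 1083 and 352 TPM in control against 651, 912 and 475 TPM in cKO. The summed order of these markers did not follow that of *Col1a1*, which was highest in control replicate 1 where the sum was second to cKO replicate 1.

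The other fibrillar collagens were far lower than collagen I. *Col11a2* and *Col27a1*, minor fibrillar chains best known from cartilage, had control means of 120 ± 25.8 and 119 ± 54.3 TPM and cKO means of 114 ± 24.3 and 111 ± 32.1 TPM (SD, n = 3 each). They stood above *Col3a1*, the partner of collagen I in soft connective tissue, whose level was 155, 61.2 and 46.4 TPM in control against 78.9, 128 and 42.6 TPM in cKO. *Col2a1*, the main fibrillar collagen of cartilage, was at 0.58 to 1.69 TPM, and 7 of the 8 cartilage markers were below 1 TPM in each library, so *Col11a1* and *Col11a2*, whose products join a *Col2a1* chain in cartilage, were measured here with almost no *Col2a1*. *Col11a1* (25.5 to 63.7 TPM), *Col5a1* (28.5 to 47.1 TPM), *Col5a2* (38.6 to 83.0 TPM) and *Col24a1* (9.59 to 33.7 TPM) overlapped between groups, as did *Col5a3* at 0.67 to 2.52 TPM. Their log2 fold changes ran from -0.43 for *Col5a3* (95% interval -1.12 to 0.26) to 0.35 for *Col24a1* (95% interval -0.62 to 1.31), and after the correction they were -0.15 for *Col5a3* (95% interval -0.72 to 0.42) and 0.64 for *Col24a1* (95% interval -0.12 to 1.41). None of the 11 fibrillar genes met the criteria, and the summed level of the class was 4137 ± 1383 TPM in control and 4152 ± 190.5 TPM in cKO (SD, n = 3 each).

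Chains of collagens V and XI did not keep the constant ratios of collagen I. *Col11a1* over *Col11a2* ranged from 0.251 to 0.586, a 2.34-fold spread, and *Col5a1* over *Col5a2* from 0.463 to 0.911, a 1.97-fold spread. *Col3a1* over *Col1a1* ranged from 0.0174 to 0.0552. In each of these ratios the groups overlapped.

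The beaded filament collagen VI forms microfibrils close to the cell surface in connective tissue. *Col6a1* had 25.2, 10.5 and 10.9 TPM in control against 11.5, 19.3 and 11.5 TPM in cKO. *Col6a2* had 28.7, 13.1 and 12.1 TPM in control against 12.9, 20.5 and 14.4 TPM in cKO. *Col6a3* ran from 9.62 to 20.5 TPM with the same high libraries, control replicate 1 and cKO replicate 2. None of the 3 met the criteria, with log2 fold changes of -0.06 for *Col6a1* (95% interval -0.94 to 0.81) and -0.09 for *Col6a2* (95% interval -0.91 to 0.73), which turned to 0.13 and 0.15 after the correction and to 0.05 and 0.01 with quantile normalization. *Col6a4*, *Col6a5* and *Col6a6* stayed at or below 0.91 TPM and were not tested.

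Among the 32 tested genes, the steadiest and the most variable were both FACIT collagens. *Col9a3*, a chain of the fibril-associated collagen IX, had 190, 191 and 166 TPM in control against 166, 211 and 189 TPM in cKO, a 1.27-fold spread over the 6 libraries. It was the third most abundant collagen by control mean, rank 515 of all genes tested. Its log2 fold change was 0.05 (95% interval -0.31 to 0.41, limma p = 0.764, exact permutation p = 0.9), 0.15 after the correction and -0.04 with quantile normalization. Its usual partners were far lower, *Col9a2* at 5.63 to 10.5 TPM and *Col9a1* at 0.04 to 0.07 TPM, so that *Col9a2* reached 0.0297 to 0.0498 of *Col9a3*. *Col12a1*, a collagen of tendon and periodontal ligament, had 32.9, 13.9 and 9.13 TPM in control against 11.1, 32.6 and 4.93 TPM in cKO, a 6.67-fold spread that reached 3.602-fold within control and 6.61-fold within cKO.

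*Col22a1*, a collagen of tissue junctions, had 56.9, 38.8 and 37.6 TPM in control against 35.2, 64.2 and 36.6 TPM in cKO, with a log2 fold change of -0.0009 (95% interval -0.66 to 0.66) that was 0.34 after the correction, 0.06 with quantile normalization and 0.06 with median-ratio scaling. *Col16a1* had 6.15 to 22.4 TPM and *Col14a1* 10.5 to 14.98 TPM. *Col20a1* had 0.17 to 1.38 TPM and was not tested, and *Col19a1* was listed at 0 in each library. No FACIT gene met the criteria.

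Many collagens, of several classes, shared their high libraries. *Col3a1*, *Col6a1*, *Col6a2*, *Col6a3*, *Col12a1* and *Col22a1* were highest in control replicate 1 and cKO replicate 2 of their groups. So were *Col5a1*, *Col5a2*, *Col11a1*, *Col24a1*, *Col9a2*, *Col16a1*, *Col8a1* and *Col8a2*, the basement membrane *Col4a5*, and the transmembrane *Col13a1* and *Col23a1*. The share of all genes with this order was not counted. These 2 libraries also had the highest summed mesenchyme and fibroblast markers of their groups. That sum, of 12 genes, was 778, 519 and 408 TPM in control against 538, 725 and 416 TPM in cKO. *Col3a1* over this sum was 0.199, 0.118 and 0.114 in control and 0.147, 0.176 and 0.102 in cKO, a 1.95-fold spread against 3.64-fold for *Col3a1* alone. *Col1a1* over the same sum had a 1.84-fold spread, against 1.74-fold for *Col1a1* alone. None of the 10 mesenchyme markers tested met the criteria. The part of admixed mesenchyme in the spread of these collagens was not tested.

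The short-chain network and other collagens were low. *Col8a1* and *Col8a2*, which form hexagonal networks below endothelia, had 0.69 to 2.95 TPM and 0.48 to 2.20 TPM, with log2 fold changes of -0.28 (95% interval -1.18 to 0.63) and -0.17 (95% interval -1.07 to 0.74), and -0.11 and 0.04 after the correction. *Col10a1*, the collagen of hypertrophic cartilage, had 0.10 to 0.36 TPM and was not tested. *Col26a1* had 18.3, 14.8 and 12.0 TPM in control against 14.9, 15.3 and 15.3 TPM in cKO, and *Col28a1* had 0.27 to 0.85 TPM and was not tested. None of these genes met the criteria.

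Collagen chains are hydroxylated and folded in the endoplasmic reticulum, trimmed and cross-linked outside the cell, and bound by receptors. Of 49 genes listed for these steps, 48 had values, 42 were tested, 1 was higher and 1 lower in cKO by the criteria (1.55% and 2.47% of all genes tested), and 0 had an adjusted p below 0.05, with 2 at an unadjusted p below 0.05 (limma). The median log2 fold change of the 42 was -0.09, against -0.07 for all genes, and 0.02 after the correction.

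None of the 14 tested hydroxylases and glycosyltransferases met the criteria. *P4ha1*, a prolyl 4-hydroxylase subunit, had 34.2, 24.0 and 25.4 TPM in control against 26.2, 29.8 and 26.5 TPM in cKO. *Plod2*, the lysyl hydroxylase that sets the type of cross-link, had 293, 480 and 128 TPM in control against 196, 245 and 146 TPM in cKO, so its controls alone differed more than the group means. None of the 10 chaperone and export genes met them either on the uncorrected scale. *Mia3*, of collagen export, had a log2 fold change of -0.56 (95% interval -1.38 to 0.26). After the correction it was again -0.56, with a 95% interval that lay below 0 (-1.10 to -0.02). The groups of *Mia3* overlapped in TPM. *Serpinh1*, the collagen chaperone HSP47, had 915, 708 and 859 TPM in control against 717, 803 and 878 TPM in cKO. Its log2 fold change was -0.05 (95% interval -0.42 to 0.33), and 0.004 after the correction.

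Of the 7 procollagen proteases and enhancers tested, *Pcolce2*, which enhances the trimming of procollagen, was higher in cKO. It had 4.04, 2.79 and 4.51 TPM in control against 6.17, 10.1 and 5.13 TPM in cKO, a log2 fold change of 0.74 (SE 0.29, 95% interval 0.05 to 1.42, limma p = 0.0379, exact permutation p = 0.1, adjusted p = 0.9999), and of 0.85 after the correction (95% interval 0.12 to 1.59). Of these 7 genes, 5 had a log2 fold change below 0. *Adamts2* had 19.7, 12.9 and 10.95 TPM in control against 8.60, 10.3 and 10.4 TPM in cKO. It was lower in cKO without overlap, as were 6.13% of all genes tested, but did not meet the criteria. Its log2 fold change was -0.49 (95% interval -1.06 to 0.09), and -0.16 after the correction (95% interval -0.62 to 0.29). None of the 5 cross-linking enzymes met the criteria. *Lox*, the lysyl oxidase, had 41.3, 30.6 and 12.95 TPM in control against 34.3, 32.7 and 21.2 TPM in cKO.

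Of the 6 collagen receptors tested, *Itga11*, an integrin subunit that binds fibrillar collagen, was lower in cKO. It had 18.5, 15.7 and 26.1 TPM in control against 12.8, 12.3 and 13.7 TPM in cKO, without overlap, and a log2 fold change of -0.57 (SE 0.22, 95% interval -1.09 to -0.06, limma p = 0.0332, exact permutation p = 0.1, adjusted p = 0.9999). After the correction it was -0.33 (95% interval -0.90 to 0.24), which no longer met the criteria. *Ddr1*, the discoidin domain receptor of epithelia, had 62.0, 54.8 and 66.7 TPM in control against 34.0, 42.9 and 67.5 TPM in cKO, and its groups overlapped because of cKO replicate 3. *Ddr2*, its mesenchymal counterpart, had 4.77, 4.85 and 1.09 TPM in control against 2.76, 5.20 and 0.89 TPM in cKO, low in replicate 3 of both groups. The summed level of the 8 receptors did not overlap between groups, at 114 to 120 TPM in control and 71.8 to 101 TPM in cKO, and no test was made on the sum.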

How the data were processed

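RNA was sequenced from M1 dental epithelium in 3 control and 3 cKO libraries made with a TruSeq kit. According to the study's methods, the authors used SeqPrep and Sickle for trimming, HISAT2 for alignment and RSEM for gene abundance. The submitters' processing notes name HISAT2 and StringTie. The authors deposited 1 TPM value per gene and library. The methods name FPKM, but each library sums to 983952 to 993946, close to the fixed sum of TPM. The genome build, annotation and strand are not given in the sources used here. Of the 55487 gene IDs, 99.38% are in GENCODE M21 (GRCm38), from which positions, lengths, GC content and coding sequences were taken, and start windows are from RefSeq (GRCm38.p6).

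From the deposited TPM, log2(TPM + 1) was fitted with limma 3.58.1 (R 4.3.3; lmFit, eBayes with a mean-variance trend, no block) over the 13719 genes that averaged 1 TPM or more, and p-values were adjusted by Benjamini-Hochberg over all of them. A fold change on this scale understates that of low genes. Exact two-sided permutation of 3 against 3 libraries was run on single genes. The length and GC correction fitted natural splines with 4 degrees of freedom per property to each library and covered 13707 genes. Scripts were tested on simulated data. Depth is unknown, and the 3 libraries per group limit the precision.

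The members, gene lists and tests were chosen with earlier results of these data known. Named by rule were the collagens that met the criteria or did not overlap, the 2 highest of each class, the chains of collagens I, IV, VII and XVII, processing genes that met the criteria with *Serpinh1*, *P4ha1*, *Plod2*, *Lox*, *Ddr1* and *Ddr2*, and the first 2 genes of each marker list, with all other genes to be given by range and count. Per-library values of *Col18a1*, *Col15a1*, *Col3a1*, *Col12a1*, *Cdh5*, *Bglap* and *Bglap2*, and the other genes named outside this rule, were chosen after their values were seen. Alternatives were a pseudocount of 0.1, no filter, 3 scalings, the replicate block, the correction with and without the block, no trend and leaving out each library; sums of markers without each library were added after seeing the data. *Col21a1* and *Ctage5*, which the gene lists hold, were not analysed here. One marker gene of the lists is not reported here.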

Additional observations from a re-analysis of the deposited data

How the results depend on the processing

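The count of collagen genes meeting the criteria, 1 in the reported fit, was 0 with median-ratio scaling, 0 with the length and GC correction, 4 with the replicate block, 4 with both of these together, and 0 to 4 when a library was left out in turn. *Col17a1* was the gene called in each alternative that gave 1. The 4 were *Col4a1*, *Col4a2*, *Col17a1* and *Col18a1*, lower in cKO, with the block, without control replicate 2 and without cKO replicate 3, but *Col7a1*, *Col11a1*, *Col24a1* and *Col27a1*, higher in cKO, with the block and the correction. Over all genes tested, 1315 of 13719 met the criteria with the block and 1110 of 13707 with the block and the correction. Without control replicate 2 it was 369 of 13719, and without cKO replicate 3 it was 951 of 13719. With median-ratio scaling it was 650 of 13687, and with the correction alone 619 of 13707. The collagen count with an adjusted p below 0.05 (limma) was 0 throughout. The median collagen log2 fold change ran from -0.29 to 0.13 over all alternatives, and leaving out control replicate 1 moved it to 0.08. The cause of these differences was not tested.

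Whether equal replicate numbers pair the libraries was checked from the correlation of their deviations from the group means, which was -0.0826, 0.289 and 0.398 for numbers 1, 2 and 3. The study speaks of pairs of replicates without saying what pairs them. Libraries with numbers 2 and 3 correlated best with their own number and those with number 1 did not, so pairing was not shown for all 3 numbers, and the replicate block is given here alone.

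Of 225 alternative values of the 15 named collagens tested, 168 kept direction and side of the threshold, 6 newly passed the 0.05 threshold, 6 no longer passed it and 45 reversed (*Col7a1* with the block and the correction also passed it on the other side), in genes whose reported fold change was within 0.17 of 0. *Col1a1* was -0.12 and *Col1a2* -0.17 with quantile normalization, where *Col6a2* was 0.015, *Col6a1* 0.045, *Col9a3* -0.041 and *Col22a1* 0.057. With rescaling within protein-coding genes, leaving out *Amelx* and *Ambn*, *Col1a2* was -0.016, *Col9a3* -0.0012 and *Col26a1* -0.015. With median-ratio scaling *Col7a1* was 0.052 and *Col22a1* 0.065. With the correction, alone and with the replicate block, *Col7a1* was 0.35, *Col4a5* 0.13, *Col6a2* 0.15, *Col6a1* 0.13, *Col22a1* 0.34 and *Col8a2* 0.037. Leaving out each library gave -0.053 to 0.35 for *Col1a1*, -0.15 to 0.30 for *Col1a2*, -0.18 to 0.081 for *Col7a1*, -0.28 to 0.019 for *Col4a5*, -0.30 to 0.29 for *Col6a2*, -0.30 to 0.33 for *Col6a1*, -0.036 to 0.14 for *Col9a3*, -0.27 to 0.19 for *Col22a1*, -0.44 to 0.11 for *Col8a2* and -0.11 to 0.17 for *Col26a1*.

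Over all genes, the 552 meeting the criteria became 940 without the filter, 1315 with the block, 1110 with the block and the correction and 204 to 1159 without each library. The 2 with an adjusted p below 0.05 (limma) became 4 with a pseudocount of 0.1, with quantile normalization and with the block, 1 without the filter and with the block and the correction, 0 with the rescaling (where 735 met the criteria) and 2 to 9 without each library. The sums of each collagen class, and of each marker list, moved by less than the spread between libraries in each alternative run on them.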
